A study of Mus musculus with 15 samples.

Results

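Transcripts of glycolysis and of the response to low oxygen were followed in 21EM15 cells, an immortalized mouse lens epithelial cell line, grown flat, grown as spheroids, or dissected from spheroids. The members are a list of 38 genes matched by symbol to both expression data sets, of which 35 were kept among 11041 genes found in both. They comprise 15 glycolytic enzymes, 4 glucose and lactate transporters and 16 subunits, regulators and targets of hypoxia-inducible factor (HIF). *Aldoc*, *Ldhb* and *Car9* were not analysed here. All samples are labelled wild type, and the labels name no genetic change or agent. The 2D group (n = 4) was grown in dishes to 80% confluence. The 3D group (n = 4) consisted of pools of 60 spheroids, started from 10000 cells apiece and cultured for 10 days. The internal (n = 4) and external (n = 3) groups were the innermost and outermost regions of pools of 120 such spheroids, isolated by laser capture microdissection. The zone between them was not sampled, and one more external sample, dropped by the study on the basis of a principal component plot, was not used here. It was dropped because it differed from the other external samples, and that choice can narrow the external spread and favour groups that lie apart. The labels do not say whether samples of one group came from separate cultures, so that the p-values measure only the spread between these samples.

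Glycolysis turns glucose into pyruvate in the cytosol, and lactate dehydrogenase then turns pyruvate into lactate, which leaves the cell through monocarboxylate transporters. The lens has no blood vessels and lies in a fluid poor in oxygen, and its fibre cells lose their mitochondria, so that glycolysis is known as its main source of ATP. HIF is a pair of proteins whose alpha subunit (HIF-1α from *Hif1a*, HIF-2α from *Epas1*) is hydroxylated by the EGLN enzymes and destroyed while oxygen is present. When oxygen is short, HIF binds a short DNA core called the hypoxia response element and raises transcription of most glycolytic enzymes, of *Slc2a1* and of genes such as *Vegfa* and *Egln3*.

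The cores ACGTG and GCGTG were searched on both strands of the 300 bases around annotated start sites (250 before to 50 after, RefSeq sequences, GRCm38.p6). A palindromic CACGTG holds ACGTG on both strands and gives 2 matches. A window was at hand for 34 of the 38 listed genes, and 31 of these had at least 1 match in a window. Such matches were common, with at least 1 in 43.8% of all 32851 windows, and in 69.4% of the 8864 tested genes that had a window. At least 1 match was found for 4 of the 4 members with a window that rose in the internal region, for 11 of the 13 that fell, and for 13 of the 14 that were not called. The windows of *Ldha*, *Hk2* and *Adm*, which fell in the internal region, and of *P4ha1* and *P4ha2*, which rose, are printed on the strand of the gene with the matches in capitals. They show the core in genes of both directions. A match is a run of letters and not a shown binding site.

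Ldha (chr7:46845554-46845853, + strand, the first of its windows, 7 matches): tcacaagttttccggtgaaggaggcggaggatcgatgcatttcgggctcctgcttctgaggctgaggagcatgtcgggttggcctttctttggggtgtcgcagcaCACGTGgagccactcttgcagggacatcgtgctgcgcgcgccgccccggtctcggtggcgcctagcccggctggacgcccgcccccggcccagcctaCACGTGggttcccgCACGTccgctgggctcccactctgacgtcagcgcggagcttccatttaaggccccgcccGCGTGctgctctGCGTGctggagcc
Hk2 (chr6:82774405-82774704, − strand, 2 matches): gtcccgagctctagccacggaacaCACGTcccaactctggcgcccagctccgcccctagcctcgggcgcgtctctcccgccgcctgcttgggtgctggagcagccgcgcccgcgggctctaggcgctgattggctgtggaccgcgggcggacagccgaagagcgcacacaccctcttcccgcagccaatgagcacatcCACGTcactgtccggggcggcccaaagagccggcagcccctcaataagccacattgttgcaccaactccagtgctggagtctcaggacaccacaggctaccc
Adm (chr7:110627407-110627706, + strand, 2 matches): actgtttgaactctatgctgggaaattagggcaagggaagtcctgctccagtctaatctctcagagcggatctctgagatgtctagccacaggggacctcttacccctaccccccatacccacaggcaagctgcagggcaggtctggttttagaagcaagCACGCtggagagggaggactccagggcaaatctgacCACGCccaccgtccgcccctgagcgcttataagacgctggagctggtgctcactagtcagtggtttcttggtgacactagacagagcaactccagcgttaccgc
P4ha1 (chr10:59323046-59323345, + strand, 3 matches): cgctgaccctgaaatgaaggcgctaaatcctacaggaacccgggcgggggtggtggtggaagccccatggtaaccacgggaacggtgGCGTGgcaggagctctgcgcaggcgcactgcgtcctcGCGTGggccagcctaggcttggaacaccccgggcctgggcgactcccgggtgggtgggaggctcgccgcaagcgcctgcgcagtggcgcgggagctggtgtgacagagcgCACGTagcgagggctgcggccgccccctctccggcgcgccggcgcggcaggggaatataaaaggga
P4ha2 (chr11:54100674-54100973, + strand, 4 matches): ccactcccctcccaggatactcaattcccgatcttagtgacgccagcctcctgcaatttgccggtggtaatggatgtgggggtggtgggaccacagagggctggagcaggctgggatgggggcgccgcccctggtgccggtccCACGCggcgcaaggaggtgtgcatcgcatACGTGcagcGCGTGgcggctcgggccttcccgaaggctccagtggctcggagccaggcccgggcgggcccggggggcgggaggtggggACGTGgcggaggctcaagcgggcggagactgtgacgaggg

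Libraries were made by 3′ end sequencing, in which a transcript gives reads from its end only, so that reads do not scale with transcript length. Levels are the deposited log2 CPM (the log2 of counts scaled to library size) and were compared within the cultures or within the regions, which were normalized separately. Between 4044230 and 11702504 reads were counted per sample, and 3 reads, the smallest signal taken as detectable, were worth between 0.248 and 0.802 CPM. These limits cover counting error only, since PCR copies cannot be told apart. The lens epithelial markers *Pax6*, *Six3*, *Mab21l1* and *Cryab* were measured in both data sets, whereas *Foxe3* and *Cdh1* were not matched. Their sum was 974 to 1263 CPM (internal) against 723 to 872 CPM (external), and 1335 to 1603 CPM (3D) against 801 to 1119 CPM (2D). *Cryab* is abundant in fibre cells too, and without it the sums were 565 to 749 CPM (internal) against 429 to 583 CPM (external), which overlap, and 694 to 917 CPM (3D) against 526 to 603 CPM (2D). Of the lens fibre markers, *Prox1* and *Maf* were measured in both and *Hsf4* and *Bfsp1* in the regions, where the sum of the 4 was 402 to 446 CPM (internal) against 145 to 183 CPM (external). In the cultures *Prox1* and *Maf* summed to 145 to 223 CPM (3D) against 46.7 to 87.1 CPM (2D). None of 3 endothelial markers was matched, and of 4 immune markers only *Cd68* was. Summed over 7 proliferation genes, the level was 63.7 to 102 CPM in the internal samples against 567 to 740 CPM in the external samples, and 669 to 795 CPM in 3D against 1135 to 2184 CPM in 2D. Summed over 7 mitochondrially encoded genes, it was 52802 to 67686 CPM (internal) against 26582 to 38926 CPM (external), and 40440 to 61450 CPM (3D) against 21980 to 36477 CPM (2D). Summed over the measured fibroblast and mural markers, it was 551 to 811 CPM in 3D against 115 to 279 CPM in 2D, and 531 to 613 CPM (internal) against 279 to 666 CPM (external). The part of these differences in the results was not tested. In bulk samples, fewer cells of a kind and less RNA per cell cannot be told apart.

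The internal region was first compared with the external region, to ask how the glycolytic and hypoxia genes differ between the core and the rim of a spheroid. Glycolytic enzymes fell in the internal region, with 10 of 15 called lower and 0 called higher (by limma and by voom, 0 also at an unadjusted p under 0.05), and their summed level was 4373 to 5556 CPM in the internal samples against 8062 to 9134 CPM in the external samples. Without a variance trend in the fit, 4 enzymes were called lower (*Hk2*, *Pfkp*, *Pkm* and *Ldha*). HIF targets went in both directions, with 5 of 16 higher and 3 of 16 lower. By voom 2 were higher (*Vegfa* and *P4ha1*) and 3 lower, and without a variance trend 1 was higher (*Vegfa*) and 1 lower (*Adm*). None of the 4 transporters was called by limma or by voom on the recovered reads, and 1 had an unadjusted p under 0.05. Over all 11299 genes, 3793 had an unadjusted p under 0.05 in either direction. Over all 35 members, 5 were called higher against 9.58% of all 11299 genes tested, and 13 were called lower against 12.1% of all genes. A call is a Benjamini-Hochberg adjusted p under 0.05 over all genes in limma, and a fold change is internal minus external on the log2 scale. With the stricter rule of an adjusted p under 0.01 and a fold change beyond 1 in absolute value, 6 members were called against 7.62% of all genes. The groups did not overlap for 17 members, 4 of them higher and 13 lower in the internal region, against 29.0% of all genes. The median fold change was −0.65 for the enzymes, 0.46 for the transporters and 0.27 for the HIF genes, beside 0.04 for all genes.

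**Figure D1:**
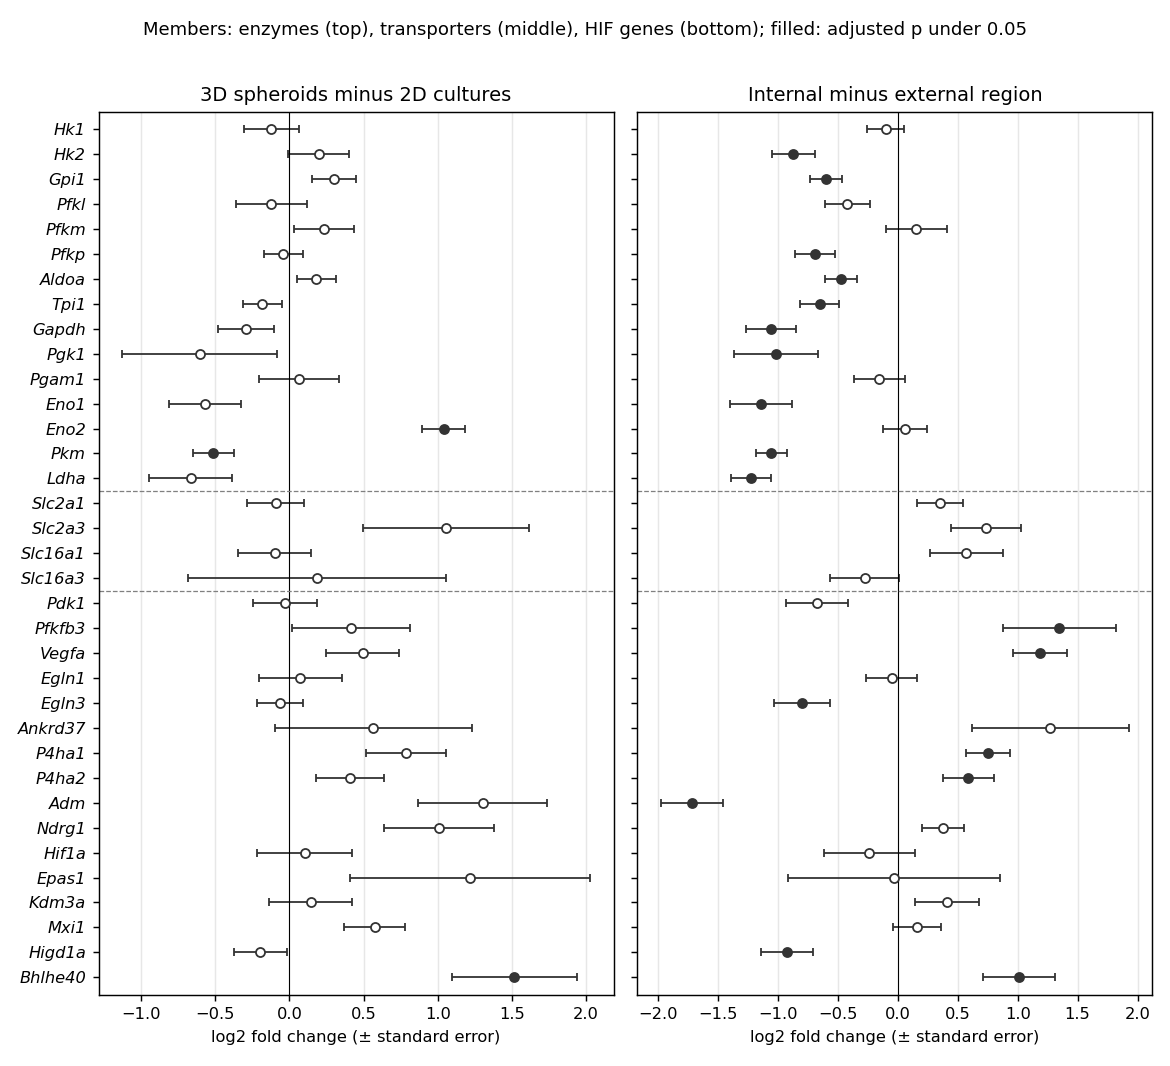
Log2 fold changes with their standard errors of the 35 members, 3D minus 2D on the left and internal minus external on the right (the 2 horizontal axes have different ranges), with dashed lines between enzymes, transporters and HIF genes. Filled points are called at an adjusted p under 0.05, which holds for 18 members on the right, 10 of them enzymes on the negative side, and for 3 on the left.

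The last steps of the pathway were among those with the largest changes. *Ldha* (chromosome 7, 46841475 to 46855627), whose enzyme makes lactate from pyruvate, had 9.31, 9.47, 8.94 and 8.66 log2 CPM in the internal samples and 10.56, 10.14 and 10.27 in the external samples. All internal values lay below all external ones, and the fold change was −1.23 (standard error 0.17, adjusted p = 7.95e-06). *Pkm* (chromosome 9, 59656368 to 59679375) encodes pyruvate kinase, which makes pyruvate and ATP, and was the enzyme transcript with the highest level in every region sample. It had 10.54, 10.68, 10.41 and 10.40 log2 CPM in the internal samples and 11.46, 11.54 and 11.69 in the external samples. Its groups were again apart, with a fold change of −1.05 (standard error 0.13, adjusted p = 2.52e-06). Both calls held when any one of the 7 samples was left out. Reads from the gene end do not part the splice forms PKM1 and PKM2, which differ in an internal exon.

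**Figure D2:**
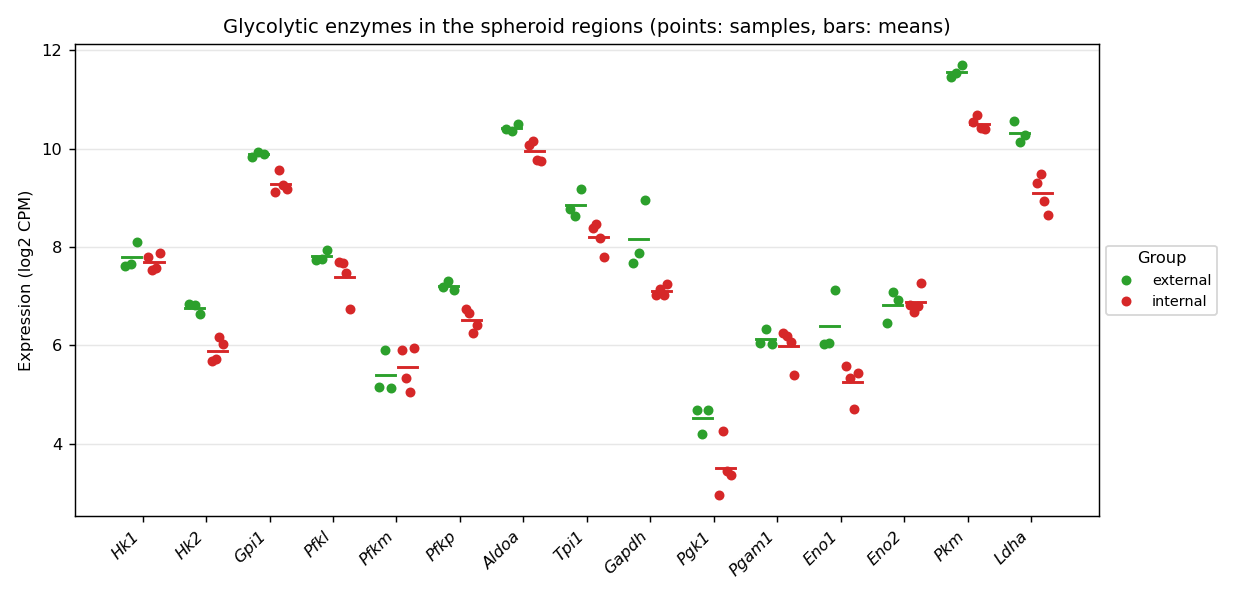
Expression (log2 CPM, a log scale) of the 15 glycolytic enzymes in the 3 external and 4 internal samples, in pathway order from hexokinase to lactate dehydrogenase, with a bar at each group mean. The internal points lie below all external points for 10 enzymes, among them *Hk2*, *Pkm* and *Ldha*, and the groups overlap for *Hk1*, *Pfkm*, *Pgk1*, *Pgam1* and *Eno2*.

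Upstream of these steps, the first reaction of the pathway traps glucose in the cell as glucose 6-phosphate and is carried out by hexokinases. *Hk2*, the inducible form, had 5.68, 5.72, 6.16 and 6.02 log2 CPM in the internal and 6.84, 6.82 and 6.64 in the external samples. It was lower in every internal sample, with a fold change of −0.87 (standard error 0.18, adjusted p = 0.0011). *Hk1*, the form most tissues use at rest, had 7.70 ± 0.17 log2 CPM (SD, n = 4) in the internal and 7.80 ± 0.27 (SD, n = 3) in the external samples and was not called (adjusted p = 0.694). *Hk1* thus had more reads than *Hk2* in all 7 region samples. *Gpi1*, the glucose phosphate isomerase, fell by 0.60 on the log2 scale, with 9.12 to 9.57 log2 CPM in the internal and 9.84 to 9.92 in the external samples (adjusted p = 0.00199).

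Phosphofructokinase commits the sugar to glycolysis and has 3 subunit genes. *Pfkp*, the platelet form, had 6.26 to 6.73 log2 CPM in the internal and 7.13 to 7.31 in the external samples, and fell by 0.69 on the log2 scale (adjusted p = 0.00382). *Pfkl*, the liver form, did not overlap between the groups (6.73 to 7.69 against 7.74 to 7.94 log2 CPM) but was not called (fold change −0.42, adjusted p = 0.115, and −0.20 with adjusted p = 0.4 without the internal replicate 4). *Pfkm*, the muscle form, spanned 5.05 to 5.95 log2 CPM in the internal and 5.14 to 5.92 in the external samples, and was not called (fold change 0.15, adjusted p = 0.715). *Aldoa*, the aldolase that splits the 6-carbon sugar, had 9.76 to 10.16 log2 CPM in the internal and 10.36 to 10.49 in the external samples. It fell by 0.48 on the log2 scale (adjusted p = 0.0126, 0.0509 without the internal replicate 4 and 0.12 without a variance trend). *Tpi1*, which interconverts the 2 triose phosphates, fell by 0.65 (7.80 to 8.46 against 8.64 to 9.18 log2 CPM, adjusted p = 0.00529, and 0.105 without a variance trend).

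Of the enzymes that work on the triose phosphates, *Gapdh*, often used as a reference gene, had 7.02, 7.14, 7.03 and 7.25 log2 CPM in the internal samples and 7.67, 7.88 and 8.96 in the external samples. The external replicate 3 stood above the other two external samples. The fold change was −1.06 (standard error 0.21, adjusted p = 0.000663), and −0.67 without that sample, and the call was kept whichever of the 7 samples was left out. *Eno1*, the enolase of most tissues, had 5.57, 5.34, 4.70 and 5.44 log2 CPM in the internal and 6.02, 6.05 and 7.13 in the external samples. It too was highest in the external replicate 3, and its groups were apart (fold change −1.14, standard error 0.26, adjusted p = 0.00247). Both genes have near-identical copies, and of the 50-nt stretches in the last 300 nt of their transcripts, 78.3% (*Gapdh*) and 86.9% (*Eno1*) occur in other annotated transcripts. Only uniquely mapped reads were counted, so that the levels of both genes are uncertain. The same search found a smaller shared part for *Gpi1* (22.8%), *Pkm* (20.7%), *Ldha* (20.5%), *Tpi1* (18.1%) and *Aldoa* (17.9%), and none for *Hk2* and *Pfkp*.

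*Pgk1*, whose enzyme makes the first ATP of the pathway and which is a classical HIF target, had 2.96, 4.26, 3.44 and 3.37 log2 CPM in the internal and 4.68, 4.20 and 4.68 in the external samples. The internal replicate 2 lay above the external replicate 2, so that the groups overlapped. The fold change was −1.01 (adjusted p = 0.0413), and leaving out one sample ended the call in 6 of 7 fits, each except the one without the internal replicate 2, with an adjusted p of up to 0.138. *Pgam1*, the phosphoglycerate mutase, was not called (5.40 to 6.26 against 6.02 to 6.34 log2 CPM, fold change −0.15, adjusted p = 0.653). *Eno2*, the enolase named for neurons, was not called either. It had 6.81, 6.68, 6.80 and 7.26 log2 CPM in the internal and 6.46, 7.09 and 6.93 in the external samples, giving 0.06 on the log2 scale (standard error 0.18, adjusted p = 0.847).

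The transporters carry glucose in and lactate out. *Slc2a3*, the high-affinity glucose transporter GLUT3, had 4.44, 4.44, 4.63 and 4.86 log2 CPM in the internal and 3.75, 4.11 and 3.72 in the external samples. All internal values were above all external ones, but it was not called (fold change 0.74, standard error 0.29, adjusted p = 0.076). It was called in 2 of the alternative fits, with plain library totals and without a variance trend. *Slc2a1*, the widespread glucose transporter GLUT1, had 6.18 ± 0.20 log2 CPM (SD, n = 4) in the internal and 5.83 ± 0.26 (SD, n = 3) in the external samples (fold change 0.35, adjusted p = 0.213). *Slc16a1* and *Slc16a3*, the lactate transporters MCT1 and MCT4, had fold changes of 0.57 (adjusted p = 0.199) and −0.28 (adjusted p = 0.542).

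Among the HIF targets, *Vegfa*, the vascular growth factor (chromosome 17, 46016993 to 46032369), had 6.02, 6.67, 6.32 and 6.33 log2 CPM in the internal and 5.60, 5.20 and 4.64 in the external samples. Every internal sample was above every external one, with a fold change of 1.19 (standard error 0.23, adjusted p = 0.000457) that was called in all 7 fits leaving out one sample. *P4ha1*, a catalytic subunit of the prolyl hydroxylase that stabilizes collagen, had 7.13, 7.63, 7.32 and 7.05 log2 CPM in the internal and 6.73, 6.72 and 6.14 in the external samples. It rose by 0.75 (standard error 0.18, adjusted p = 0.00417), also in all 7 fits. Its paralogue *P4ha2* had 5.64 to 6.0 log2 CPM in the internal and 4.93 to 5.37 in the external samples and rose by 0.59 (adjusted p = 0.0482). The call of *P4ha2* was lost in 6 of the 7 fits, each except the one without the external replicate 1, with an adjusted p of up to 0.185.

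*Pfkfb3*, which makes the fructose 2,6-bisphosphate that activates phosphofructokinase, had 2.76, 4.13, 3.90 and 3.61 log2 CPM in the internal and 2.98, 2.08 and 1.70 in the external samples. The groups overlapped at the internal replicate 1, the fold change was 1.35 (standard error 0.47, adjusted p = 0.0424), and these levels rested on 11 to 149 reads per sample. Its call was lost in 5 of the 7 fits, without the internal replicates 2, 3 or 4 or the external replicates 2 or 3 (adjusted p up to 0.16). *Bhlhe40*, a transcriptional repressor of the circadian and hypoxia responses, had 5.14, 4.72, 5.97 and 5.92 log2 CPM in the internal and 4.80, 4.55 and 3.93 in the external samples. It rose by 1.01 (adjusted p = 0.0179), with groups that overlapped at the internal replicate 2, and the call was lost without the internal replicates 3 or 4 or the external replicate 3 (adjusted p up to 0.112).

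**Figure D3:**
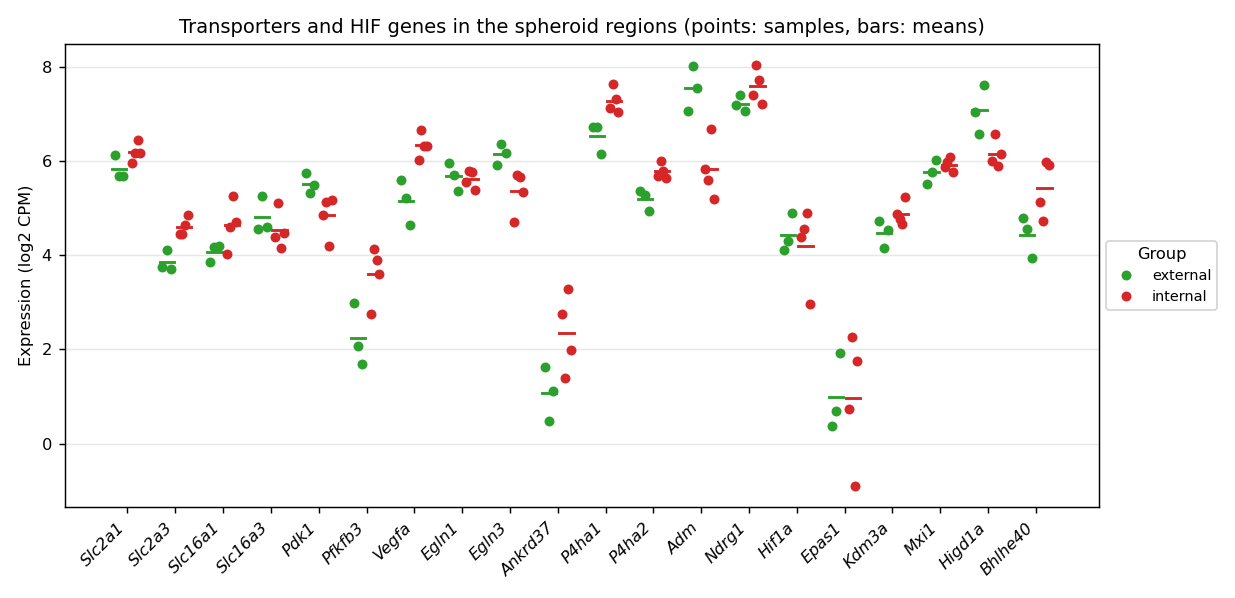
Expression (log2 CPM, a log scale) of the 4 transporters and 16 HIF genes in the 3 external and 4 internal samples, with a bar at each group mean. All internal points lie above the external ones for *Slc2a3*, *Vegfa*, *P4ha1* and *P4ha2*, and below them for *Pdk1*, *Egln3* and *Adm*.

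*Adm*, the vasodilator peptide adrenomedullin and a target of HIF (chromosome 7, 110627661 to 110629820), went the other way. It had 5.82, 5.60, 6.68 and 5.20 log2 CPM in the internal and 7.06, 8.02 and 7.56 in the external samples. The groups were apart, and its fold change, −1.72 with a standard error of 0.26 (adjusted p = 3.5e-05), was the largest in size among the members in this comparison and was called in all 7 fits. *Higd1a*, a small mitochondrial protein induced by hypoxia, had 6.0, 6.58, 5.89 and 6.14 log2 CPM in the internal and 7.05, 6.57 and 7.61 in the external samples. It fell by 0.92 (standard error 0.22, adjusted p = 0.00303), with the internal replicate 2 level with the external replicate 2. Part of its gene end is shared with other transcripts (20.9% of the 50-nt stretches).

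The EGLN enzymes are the oxygen sensors of the pathway. *Egln3*, the EGLN enzyme that is itself strongly induced by HIF, had 4.71, 5.70, 5.66 and 5.34 log2 CPM in the internal and 5.92, 6.36 and 6.17 in the external samples. It fell by 0.80 (standard error 0.23, adjusted p = 0.0159), and its call was lost without the internal replicate 1 or the external replicates 2 or 3 (adjusted p up to 0.0994). *Egln1*, the main sensor in most cells, had 5.38 to 5.78 log2 CPM in the internal and 5.36 to 5.97 in the external samples and was not called (fold change −0.05, adjusted p = 0.889). The difference between these paralogues was not tested. *Hif1a* spanned 2.95 to 4.89 log2 CPM in the internal and 4.11 to 4.89 in the external samples (fold change −0.24, adjusted p = 0.7). Its sign rested on single samples, with 0.17 without the internal replicate 4, the lowest of the 7 samples, and −0.01 without the external replicate 3. *Epas1* was scarce, with 1 to 39 reads per sample, and was not called (adjusted p = 0.985). HIF alpha subunits are controlled mainly through protein stability, which RNA does not measure.

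The remaining HIF targets were not called in the fit of all samples. *Pdk1*, the kinase that shuts pyruvate out of mitochondria, had 4.20 to 5.17 log2 CPM in the internal and 5.32 to 5.76 in the external samples. The groups did not overlap, but its fold change of −0.68 had an adjusted p of 0.0636. It was called with median centring (adjusted p = 0.0407) and without the internal replicate 4 (0.0461). *Ankrd37*, an ankyrin repeat protein, was low with 5 to 44 reads per sample (fold change 1.27, standard error 0.66, adjusted p = 0.178). *Ndrg1*, a stress-induced protein linked to differentiation, had a fold change of 0.38 (adjusted p = 0.134), and of 0.49 with plain library totals, where it was called (0.0496). It was 0.23 without the internal replicate 2. Those of *Kdm3a*, a histone H3K9 demethylase, and *Mxi1*, an antagonist of MYC, were 0.41 (adjusted p = 0.296) and 0.16 (adjusted p = 0.612).

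Other genes around the pathway were counted from lists that held none of the members, and each count stands beside the 9.58% of all genes called higher and the 12.1% called lower in the internal region. Of 21 other glycolysis and glycogen genes measured in the regions, *Slc2a6*, *Eno3* and *Gys1* fell and 0 rose by limma or voom, a share of lower genes close to that of all genes. At an unadjusted p under 0.05, 1 was higher, beside 3793 of all 11299 genes in either direction. The transporter *Slc2a6* had 1 to 11 reads in the internal and 28 to 34 in the external samples. The muscle enolase *Eno3* fell by 1.56 (adjusted p = 7.05e-05) and the glycogen synthase *Gys1* by 1.18 (adjusted p = 7.45e-05). All 3 genes called in the pentose phosphate pathway, of 7 measured, also fell. They were *Pgls* (fold change −1.23, adjusted p = 1.23e-06), *Taldo1* (−0.72, adjusted p = 0.00102) and *Pgd* (−0.57, adjusted p = 0.0177). Of 13 genes that steer pyruvate into mitochondria, the phosphatase subunit *Pdp1* (1.11, adjusted p = 0.00323) and the kinase *Pdk2* (0.74, adjusted p = 0.0442) rose and *Pdk3* fell (−0.73, adjusted p = 0.0393), of which voom called only *Pdp1*. With 2 and 1 of 13, these shares too were close to those of all genes.

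Of 44 other HIF targets measured in the regions, 7 rose and 7 fell (5 and 7 by voom), beside 9.58% and 12.1% of all genes. *Ddit4*, an inhibitor of mTORC1, rose by 1.41 (adjusted p = 7.8e-05), the nuclear receptor *Rora* by 1.12 (adjusted p = 0.00165), and *Selenbp1* had 34 to 95 reads in the internal against 0 to 7 in the external samples. *Anxa2*, an abundant membrane-binding protein, fell by 1.09 (adjusted p = 1.93e-06). The collagen cross-linking enzyme *Lox* had 0 to 4 reads in the internal and 10 to 44 in the external samples, and the peptide endothelin of *Edn1* had 0 to 3 against 3 to 107 reads. The median fold change of the list was 0.04, as for all genes. Of 11 genes of the HIF core and its chaperones, 1 was called, *Hsp90ab1*, which fell by 0.83 (adjusted p = 0.000383).

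The 3D spheroids were then compared with the 2D cultures, to ask what growth in 3D does to the same genes. Few members were called. *Eno2* and *Bhlhe40* rose and *Pkm* fell, and the other 32 did not pass the test. The 2 higher members stand against 9.74% of all 11677 genes tested and the single lower member against 9.25%. Neither share exceeded the background in this fit, which did not pair samples. One member, *Eno2*, met the stricter rule, against 4.43% of all genes. The groups did not overlap for 5 members, *Eno2*, *Bhlhe40*, *Adm* and *Ndrg1* higher and *Pkm* lower in 3D, against 24.0% of all genes. The median fold change was −0.12 for the enzymes, 0.05 for the transporters and 0.46 for the HIF genes, beside −0.03 for all genes.

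*Eno2* (chromosome 6, 124760053 to 124769673) had 6.36, 6.23, 6.64 and 6.52 log2 CPM in the 3D samples and 5.25, 5.56, 5.51 and 5.26 in the 2D samples. The groups were well apart, and it rose by 1.04 (standard error 0.15, adjusted p = 0.00172), a call kept whichever of the 8 samples was left out. *Pkm* had 10.37, 10.49, 10.28 and 10.59 log2 CPM in 3D and 10.69, 11.01, 11.00 and 11.09 in 2D. It fell by 0.51 (standard error 0.14, adjusted p = 0.0275), and its call was lost without the 2D replicates 3 or 4 or the 3D replicates 1, 2 or 3 (adjusted p up to 0.0878), and with median centring (0.0597).

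The other enzymes were not called, and their summed level overlapped, with 5617 to 6186 CPM in 3D and 5813 to 7896 CPM in 2D. *Ldha* had 9.82, 9.41, 9.55 and 9.63 log2 CPM in 3D and 9.96, 9.49, 10.67 and 10.96 in 2D (fold change −0.67, adjusted p = 0.123). The 2D replicates 3 and 4 were higher than all the other culture samples, and *Ldha* was called lower in 3D without the 2D replicate 2. *Eno1* (fold change −0.57, adjusted p = 0.126) and *Pgk1* (−0.61, adjusted p = 0.449) were also called lower without that replicate. Without the 2D replicate 4, the fold changes shrank to −0.43 (*Ldha*, adjusted p = 0.279), −0.33 (*Eno1*) and −0.23 (*Pgk1*). *Pgk1* ranged from 2.93 log2 CPM in the 2D replicate 2 to 5.83 in the 2D replicate 4. The fold changes of *Hk1*, *Hk2*, *Gpi1*, *Pfkl*, *Pfkm*, *Pfkp*, *Aldoa*, *Tpi1*, *Gapdh* and *Pgam1* lay between −0.29 and 0.30, with adjusted p-values of 0.182 or more.

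No transporter was called in the cultures either, by limma or by voom, and 0 had an unadjusted p under 0.05. Over all 11677 genes, 3930 had an unadjusted p under 0.05 in either direction. *Slc2a3* had 2.52, 3.91, 3.91 and 4.15 log2 CPM in 3D and 3.48, 2.90, 0.82 and 3.06 in 2D, a fold change of 1.06 with a standard error of 0.56 (adjusted p = 0.211), and of 0.47 without the 2D replicate 3. *Slc16a3* spread widely among the 2D samples, with 3.86, 5.52, 1.49 and 6.22 log2 CPM. This spread covered the 3D values of 3.26 to 5.24 log2 CPM (fold change 0.19, adjusted p = 0.903). The sign rested on single samples, with −0.74 without the 2D replicate 3 and 0.83 without the 2D replicate 4. *Slc2a1* and *Slc16a1* had fold changes of −0.09 (adjusted p = 0.771) and −0.10 (adjusted p = 0.81).

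Of the 16 HIF genes, 13 had a higher mean in 3D, where the median fold change of all genes was −0.03. Only 1 of the 16 was called, beside 9.74% of all genes called higher. The summed level of the 16 HIF genes was 984 to 1224 CPM in the 3D samples and 717 to 844 CPM in the 2D samples. Without *Adm*, *Ndrg1* and *P4ha1*, members picked after their values were seen and none of them called, the sums overlapped, with 444 to 600.1 CPM in 3D and 374 to 574 CPM in 2D. *Bhlhe40* had 5.56, 4.93, 6.27 and 5.81 log2 CPM in 3D and 4.70, 2.82, 4.19 and 4.79 in 2D. It rose by 1.52 (standard error 0.42, adjusted p = 0.0309), but the call was lost without the 2D replicate 3 or the 3D replicates 1, 3 or 4 (adjusted p up to 0.0955), and without a variance trend (0.0574). *Adm* had 7.22, 8.02, 7.33 and 7.38 log2 CPM in 3D and 7.15, 7.02, 5.06 and 5.51 in 2D. The groups were apart by a small margin, and *Adm* was not called (fold change 1.30, standard error 0.43, adjusted p = 0.0594). It was called higher in 3D without the 2D replicate 1 (adjusted p = 0.0226) and without the 2D replicate 2 (adjusted p = 0.0209).

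**Figure D4:**
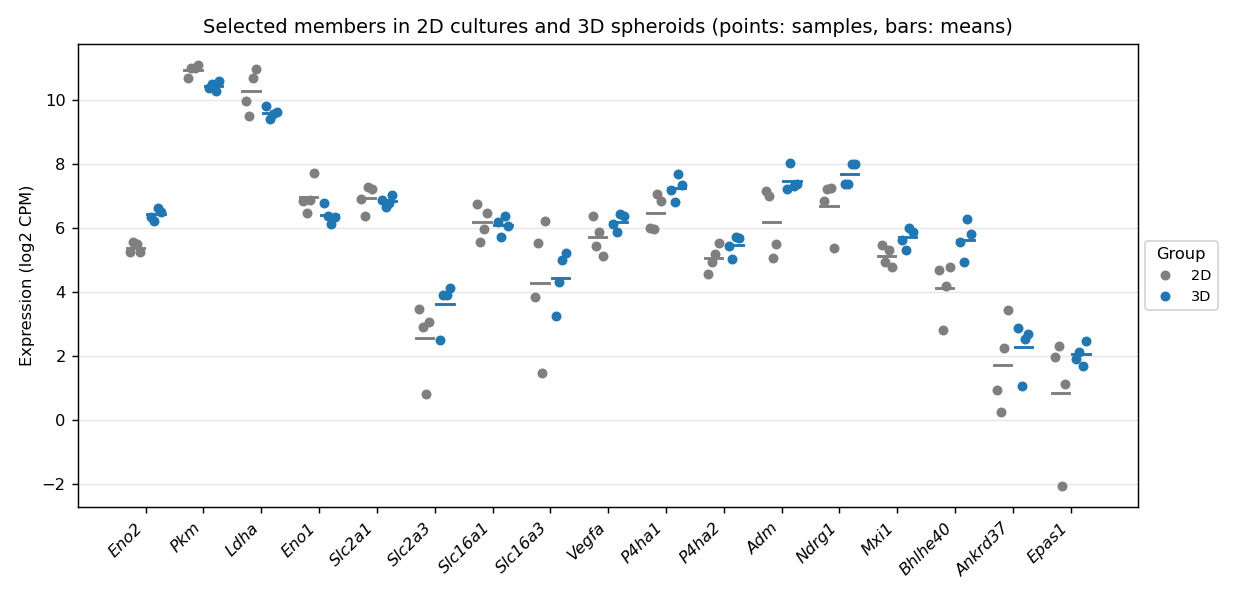
Expression (log2 CPM, a log scale) of 17 members in the 4 2D and 4 3D samples, with a bar at each group mean. The 3D points lie above all 2D points for *Eno2*, *Adm*, *Ndrg1* and *Bhlhe40* and below them for *Pkm*, while *Slc16a3*, *Ankrd37* and *Epas1* spread more among the 2D than among the 3D samples.

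*Ndrg1* had 7.38, 7.39, 8.0 and 8.0 log2 CPM in 3D and 6.86, 7.24, 7.26 and 5.39 in 2D. The 2D replicate 4 was far below the others, and the gene was not called (fold change 1.01, adjusted p = 0.0829). The fold change was 0.58 without the 2D replicate 4 (adjusted p = 0.0928), and 1.20 without the 2D replicate 2, where it was called (adjusted p = 0.0427). *P4ha1* had 7.18, 6.82, 7.70 and 7.35 log2 CPM in 3D and 6.01, 5.98, 7.07 and 6.84 in 2D (fold change 0.79, adjusted p = 0.0683), and was called without the 2D replicate 3 (adjusted p = 0.0331). *Mxi1* had a fold change of 0.57 (adjusted p = 0.0754) and was called without the 2D replicate 1 or the 3D replicate 2. *Vegfa* had a fold change of 0.49 (adjusted p = 0.189) and was called without the 2D replicate 1 (0.72, adjusted p = 0.0377), while the fold change was 0.30 without the 2D replicate 4 (adjusted p = 0.414). That of *P4ha2* was 0.41 (adjusted p = 0.236), and 0.25 without the 2D replicate 1. *Epas1* had 0 reads in the 2D replicate 3, which allows up to 0.351 CPM, and 19 to 43 reads in the other culture samples. Its fold change was 1.22 (adjusted p = 0.318), and 0.25 without that replicate. The fold changes of *Pdk1*, *Egln1*, *Egln3*, *Hif1a*, *Kdm3a* and *Higd1a* lay between −0.20 and 0.15, and those of *Pfkfb3* and *Ankrd37* were 0.42 (adjusted p = 0.494) and 0.57 (adjusted p = 0.586). *Pfkfb3* ran from 0.08 without the 2D replicate 1 to 0.64 without the 2D replicate 4, and *Ankrd37* from 0.07 without the 2D replicate 2 to 1.14 without the 2D replicate 4. Of the 32 members not called in the cultures, 29 had a fold change that moved by over 1.5 times with 1 sample left out, and in 12 the sign turned.

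Among the other genes around the pathway, *Bpgm*, which makes 2,3-bisphosphoglycerate, was the only one called of 21 other glycolysis and glycogen genes in the cultures, and it rose by 2.10 (adjusted p = 0.00315). Of 44 other HIF targets 9 rose and 3 fell (9 and 2 by voom, which did not call *Edn1*), beside 9.74% and 9.25% of all genes. The chemokine receptor *Cxcr4* rose by 3.47 (adjusted p = 0.00077), the matrix protein gene *Tgfbi* by 1.90 (adjusted p = 0.000513) and *Selenbp1* by 1.91 (adjusted p = 0.0188). *Edn1* (fold change −2.10, adjusted p = 0.0248), the transferrin receptor *Tfrc* (−1.39, adjusted p = 0.0242) and the carbonic anhydrase *Car12* fell. *Car12* was named after its values were seen and had 3 to 10 reads in 3D against 12 to 44 in 2D. The kinase *Pdk2* rose by 1.48 (adjusted p = 0.00897) and *Pdha1*, a subunit of pyruvate dehydrogenase, fell by 0.54 (adjusted p = 0.00897), of 13 genes that steer pyruvate, shares that did not exceed those of all genes. Of 7 pentose phosphate genes and 11 HIF core genes, 0 were called by limma or voom. At an unadjusted p under 0.05, 5 (2 higher, 3 lower) and 1 (lower) passed, beside 3930 of all 11677 genes in either direction.

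Within the enolases, the share of reads from *Eno2* moved in both comparisons. It was 42.8%, 47.4%, 59.0% and 52.7% of the *Eno1* and *Eno2* reads in the 3D samples and 24.6%, 34.5%, 28.0% and 15.4% in the 2D samples. In the internal samples it was 70.3%, 71.7%, 81.2% and 78.0%, and in the external samples 57.6%, 67.3% and 46.4%. The groups did not overlap in either comparison, but from different sides. Of *Eno1* and *Eno2*, only *Eno2* was called in the cultures and only *Eno1* in the regions. The shares leave out the muscle enolase *Eno3*, which was also called lower in the internal region (fold change −1.56, adjusted p = 7.05e-05). These shares rest on the uniquely mapped part of the *Eno1* reads and may overstate *Eno2*. No test was made of the shares.

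**Figure D5:**
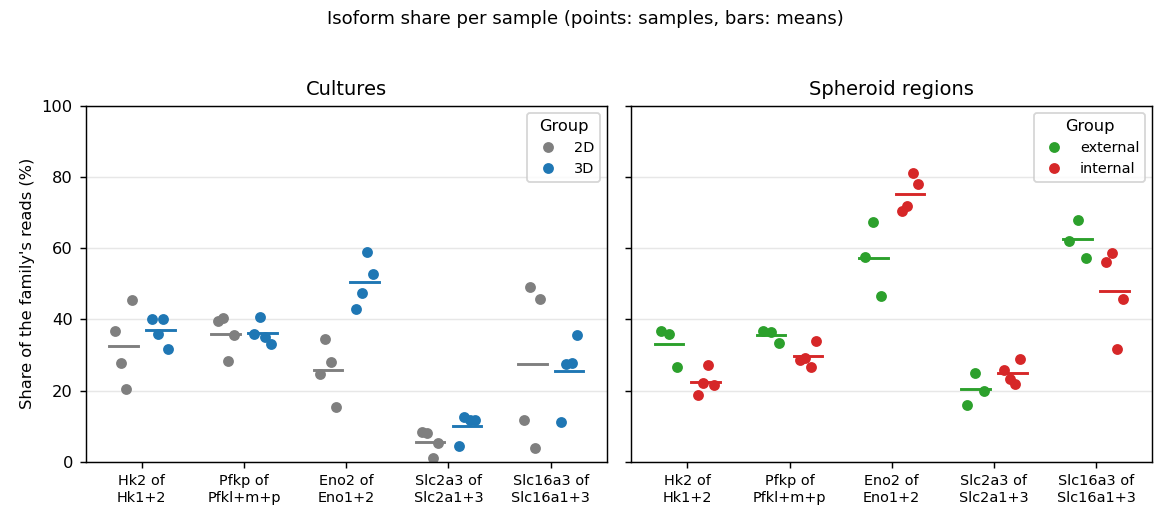
Share (%) of the reads of the listed members of a gene family that came from a single member, per sample, in the cultures (left) and the regions (right), with a bar at each group mean. The *Eno2* points of the 3D and of the internal samples lie above those of the 2D and of the external samples, while the groups overlap for the other 4 families.

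In the other families, the shares overlapped between groups. *Hk2* made up 22.4 ± 3.6% (SD, n = 4) of the hexokinase reads in the internal and 33.1 ± 5.7% (SD, n = 3) in the external samples. *Pfkp* made up 29.6 ± 3.0% (SD, n = 4) of the phosphofructokinase reads in the internal and 35.5 ± 2.0% (SD, n = 3) in the external samples. *Slc16a3* held 48.1 ± 12.4% (SD, n = 4) of the MCT reads in the internal and 62.4 ± 5.3% (SD, n = 3) in the external samples. In the cultures the *Slc16a3* share ran from 3.9% to 49.0% among the 2D samples alone.

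Set side by side, *Pkm* was called lower in 3D than in 2D and lower in the internal than in the external region, and *Bhlhe40* was called higher in both. The culture call of *Pkm* and both calls of *Bhlhe40* were lost in several fits that left out a single sample. *Adm* had a fold change of 1.30 in the cultures, where it was not called, and of −1.72 in the regions. *Eno2* had 1.04 and 0.06, *Ldha* −0.67 and −1.23, *Vegfa* 0.49 and 1.19, and *P4ha1* 0.79 and 0.75. The whole spheroids and the dissected regions were extracted with different kits and normalized apart, and the difference between the 2 comparisons was not tested.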

How the data were processed

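RNA of 15 samples was profiled with a QuantSeq 3′ kit. Per the submitters' processing notes, reads were handled with STAR 2.7.8a, featureCounts 1.6.0 and GRCm38.p6, and per the study's methods uniquely mapped sense reads were counted and tested with edgeR. The authors deposited log2 CPM values per sample, with a prior of about 2 reads that understates the fold changes of low genes, in separately normalized tables for cultures (11677 genes) and regions (11299 genes). They also deposited fold changes and p-values of their own comparisons, which were not used. Whole reads were recovered from the spacing of the values (100.0% whole within 0.1).

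Each table was fitted alone with limma 3.58.1 (R 4.3.3) on the deposited log2 values, with a variance trend, two-sided, and Benjamini-Hochberg adjustment over all genes of the table. The scripts were tested on simulated data. Positions are from GENCODE vM21, which held 11676 of 11677 and 11298 of 11299 IDs. Alternatives were a replicate block, no trend, a robust prior, median centring, plain library totals, log2(CPM + 1), a minimum mean of 2 log2 CPM, voom on the recovered reads, the stricter rule and leaving out samples. Members and lists were chosen with earlier results of these data known. All members are named. In each other list, the text names for each direction up to 3 called genes with the largest fold change, provided that the higher group averaged 2 log2 CPM or more. Tables and plots were made with matplotlib 3.10.9, scipy 1.17.1, pandas 2.3.3 and numpy 2.4.6 in Python 3.11.15.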

Additional observations from a re-analysis of the deposited data

Results flagged for a closer look

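Dixon's test of the highest or lowest sample was made on each member in each group of 4 samples, 105 tests in all, and 4 passed the 95% critical value, where chance gives about 1 in 20. The group of 3 external samples was not tested. In the 3D replicate 1, *Pfkp* had 6.08 log2 CPM while the other 3D samples had 6.26 to 6.29 (gap over range 0.862), and *Slc2a3* had 2.52 against 3.91 to 4.15 (0.855). In the 2D replicate 1, *Gpi1* had 8.47 log2 CPM while the other 2D samples had 8.97 to 9.06 (0.848), and *Gapdh* had 8.70 against 8.25 to 8.32 (0.851). None of these 4 genes was called between 3D and 2D.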

How the results depend on the processing

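Of 1117 values of single genes under alternatives, 1036 kept their side of the threshold, 60 lost and 21 gained a call, and no called gene reversed, while the sign changed in 45 values of uncalled genes. Members higher in 3D numbered 2, but 5 with the replicate block, where 1343 of all 11677 genes were higher. They numbered 1 without a variance trend, 1 by the stricter rule, and 1 to 5 with one sample left out. The members lower in 3D numbered 1, but 0 with median centring, 2 without both samples numbered 2 (chosen after seeing the data), 0 by the stricter rule and 0 to 4 with one sample left out. Genes of the other lists higher in 3D numbered 11, 4 by the stricter rule and 6 to 14 with one sample left out. Those lower numbered 4, but 8 with plain library totals, 0 by the stricter rule and 1 to 6 with one sample left out.

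Members higher in the internal region numbered 5, but 2 with the replicate block, 2 without a trend, 3 with median centring, 2 with voom, 1 by the stricter rule and 2 to 5 with one sample left out. The lower members numbered 13, but 5 without a trend, 5 by the stricter rule and 11 to 13 with one sample left out. Genes of the other lists higher in the internal region numbered 9, but 5 with the replicate block, 5 without a trend, 4 by the stricter rule and 4 to 9 with one sample left out. Those lower numbered 15, but 9 without a trend, 6 by the stricter rule and 7 to 13 with one sample left out. The cause of these changes was not tested. Over all genes of the regions, 1083 were higher and 1370 lower (44.2% higher). Plain library totals moved the median of all genes from 0.04 to 0.15 and the share higher to 56.5%, whereas median centring (median −0.03) gave 36.8% and voom 36.4% higher. With 1 sample left out, 13 of the 17 members not called in the regions moved by over 1.5 times, and 6 turned sign. Same-numbered samples correlated at 0.227, 0.503, 0.066 and 0.005 in the cultures and between −0.065 and −0.044 in the regions. All the values in the cultures were positive, but the labels do not say that the numbers pair samples. The main fits did not pair them. With the replicate block, *Adm*, *P4ha1* and *Mxi1* were also called higher in 3D, and in the regions *Aldoa* (adjusted p = 0.102), *Tpi1* (0.0628), *Pgk1*, *Pfkfb3*, *P4ha2* and *Bhlhe40* were not called.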
